A study of Mus musculus with 1073 samples.

Results

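The cells described here were the *Flk1*-GFP+ cells of the E7.25 mouse yolk sac, labelled by the study as extraembryonic mesoderm. They were chosen by their labels alone, with no use of expression. They came from 2 captures on the Fluidigm C1 system, a microfluidic device that holds each cell at its own site, and the captures were sequenced in lanes 6 and 7 of one flow cell. The filtered tables held 73 of these cells from lane 6 and 74 from lane 7, of 926 cells in 13 sorted populations. The sample titles give the stage as E7.25, whereas the column names of the tables give E7.5 for the same cells; E7.25 is used here.

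At gastrulation, epiblast cells pass through the primitive streak and leave it as mesoderm. The first mesoderm to leave moves out of the embryo proper and lines the yolk sac, the amnion and the allantois. *Flk1* (*Kdr*) encodes the main receptor for VEGF-A and is switched on in this mesoderm, which is the source of the first blood cells and of the endothelium of the yolk sac. Streak and nascent mesoderm are known for the transcription factors *T*, *Eomes*, *Mixl1* and *Mesp1*, which are active there for a short time only. Blood and endothelial fate depends on *Etv2*, *Tal1*, *Lmo2*, *Gata2*, *Fli1* and *Runx1*.

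The E7.25 cells carried GFP in 1 *Flk1* allele (*Flk1*-GFP/+) and were dissociated with trypsin, as were the 140 *Flk1*-GFP+ cells of E7.75, the nearest population by gate, genotype and preparation. The other 11 populations were sorted with antibodies from C57BL/6 yolk sacs of E8.25 to E10.5 after collagenase/dispase, and did not carry the GFP allele. The GFP line was kept on the same background. The 11 comprised haematopoietic progenitor cells (HPC), primitive erythroid cells (EryP), megakaryocytes (Mk), macrophages (Mac) and endothelium (Endo). The cells of E7.25 were sequenced on the same flow cell as those of E8.25 and E8.5, whereas E7.75 was run with E9.5 and E10.5 on another. Stage and flow cell therefore cannot be told apart between E7.25 and E7.75, nor can stage, genotype, gate and dissociation between E7.25 and the later populations. Yolk sacs of several embryos were pooled for each sort and no embryo is named for a cell, so each population counted as 1 sample. No p-values were computed, and the only repeat of E7.25 is its pair of captures.

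Of 159 captured E7.25 cells, 92.5% passed the authors' filter (exact 95% interval 87.2 to 96.0), 73 of 80 in lane 6 and 74 of 79 in lane 7. The cells held 875346 to 3309556 read counts each (median 1822221), and 8759 genes were detected at the median (range 5535 to 10220). Detection means 1 read count or more. Thinned to 840000 counts per cell, the median was 8319 genes. The unthinned medians of the other populations ran from 5245 to 9165 genes. Lane 6 cells held fewer counts than lane 7 cells (medians 1750258 and 1942296) but more genes (9085 and 8547.5; thinned, 8617 and 8055.5), and a higher mitochondrial share (medians 4.31% and 2.94%). Read counts are not molecules, and every interval given here covers counting error only.

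Each of the 7 genes listed as markers of the population was found in most E7.25 cells. Levels are means over cells of the authors' CPM, counts scaled by a size factor per cell, and ratios are log2 of mean CPM + 1. *Gpc3*, a cell surface glypican, lay between 150 and 4194 CPM per cell with a median of 1563, so that no E7.25 cell lacked it. Its mean of 1638 CPM (1591 in lane 6 and 1684 in lane 7) was above 499 at E7.75 and 82.2 in the highest later population, E8.5 Endo. *Sox11*, an SRY-related transcription factor, ranged from 85.8 to 8460 CPM per cell (median 2358). The mean was 2675 CPM (2738 and 2613 in lanes 6 and 7), against 948 at E7.75 and 474 in E8.5 Endo. These 2 genes were 3.28-fold and 2.82-fold above E7.75 on the log2(CPM + 1) scale, and their captures differed far less than the stages.

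*Phlda2*, a maternally expressed imprinted gene known for limiting placental growth, ranged from 2.20 to 1993 CPM per cell (median 473). Its mean was 520 CPM, 396 in lane 6 and 643 in lane 7, against 260 at E7.75, and no later population exceeded 5.18 CPM. *Sall4*, a spalt zinc finger factor of pluripotent and early embryonic cells, averaged 1071 CPM (range 40.7 to 4152, median 969), with 980 and 1161 in lanes 6 and 7, 660 at E7.75 and 84.1 in E8.5 Endo. *Tbx3*, a T-box factor, averaged 119.2 CPM (range 0 to 577, median 102.6), with 142.4 and 96.2 in the captures, 78.5 at E7.75 and 18.4 in E10.5 Endo. Of the 3, *Tbx3* lay closest to E7.75, where the difference (log2 0.60) was similar in size to that between the captures. *Phlda2* and *Tbx3* thus divided the mesoderm of both stages from the later populations more than they divided the stages.

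*Mesp1*, a bHLH factor that marks mesoderm as it leaves the streak, was the least abundant marker and had the widest ratio to E7.75 of the 7, 8.64-fold. It was detected in 72.8% of E7.25 cells (exact 95% interval 64.8 to 79.8), 78.1% in lane 6 and 67.6% in lane 7, against 9.29% at E7.75. Cells ranged from 0 to 130 CPM with a median of 5.64. The mean of 15.0 CPM compared with 0.849 at E7.75, and in the later populations the highest mean was 0.00883 CPM, in E10.5 Mac. The sequence just upstream of *Mesp1* is shown because it was the only promoter of the streak genes searched here to hold matches to both a T-box and a TCF/LEF motif. It spans 250 bases before to 50 bases after the start of the gene at chr7:79793541-79793840 on the minus strand (RefSeq, GRCm38.p6), 55.3% GC, with the TCF/LEF letters CTTTGAT and the T-box letters TCACACCT in capitals:
Mesp1: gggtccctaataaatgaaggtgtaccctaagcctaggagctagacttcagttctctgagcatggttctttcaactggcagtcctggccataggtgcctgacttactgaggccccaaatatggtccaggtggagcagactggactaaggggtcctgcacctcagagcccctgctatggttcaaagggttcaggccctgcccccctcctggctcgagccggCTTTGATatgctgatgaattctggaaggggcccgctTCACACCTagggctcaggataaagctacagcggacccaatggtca

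*Kdr* itself, the locus of the reporter, was found in 95.2% of cells (exact 95% interval 90.4 to 98.1), from 0 to 508 CPM per cell with a median of 77.4. As only E7.25 and E7.75 carried the GFP allele, *Kdr* levels are compared between these, with a mean of 110 CPM (127.6 in lane 6, 91.6 in lane 7) at E7.25 and of 36.3 CPM in 72.1% of cells at E7.75. In the other genotype, means ran from 0 in both EryP populations through 0.433 (E10.5 Mac), 13.3 (E10.5 HPC), 47.0 (E9.5 HPC), 68.6 (E8.5 Mk), 117.2 (E10.5 Mk), 152.1 (E8.5 HPC) and 213 (E8.25 HPC) to 739 in E8.5 and 1527 in E10.5 Endo. By these means E7.25 ranked 6 of the 13, but population and GFP allele cannot be told apart in that rank. Of the 7 markers, 6 were highest at E7.25, beside 6.36% over all genes, and the place of *Kdr* has the limit just given. The markers were chosen with earlier results of these data known, so their high place is no independent support for the label. Per kilobase of exon, the scale on which the markers are compared with each other, the order of the E7.25 levels was *Gpc3* (609 CPM per kb), *Phlda2* (464), *Sox11* (322), *Sall4* (193), *Tbx3* (18.0), *Kdr* (12.1) and *Mesp1* (11.7).

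**Figure D1:**
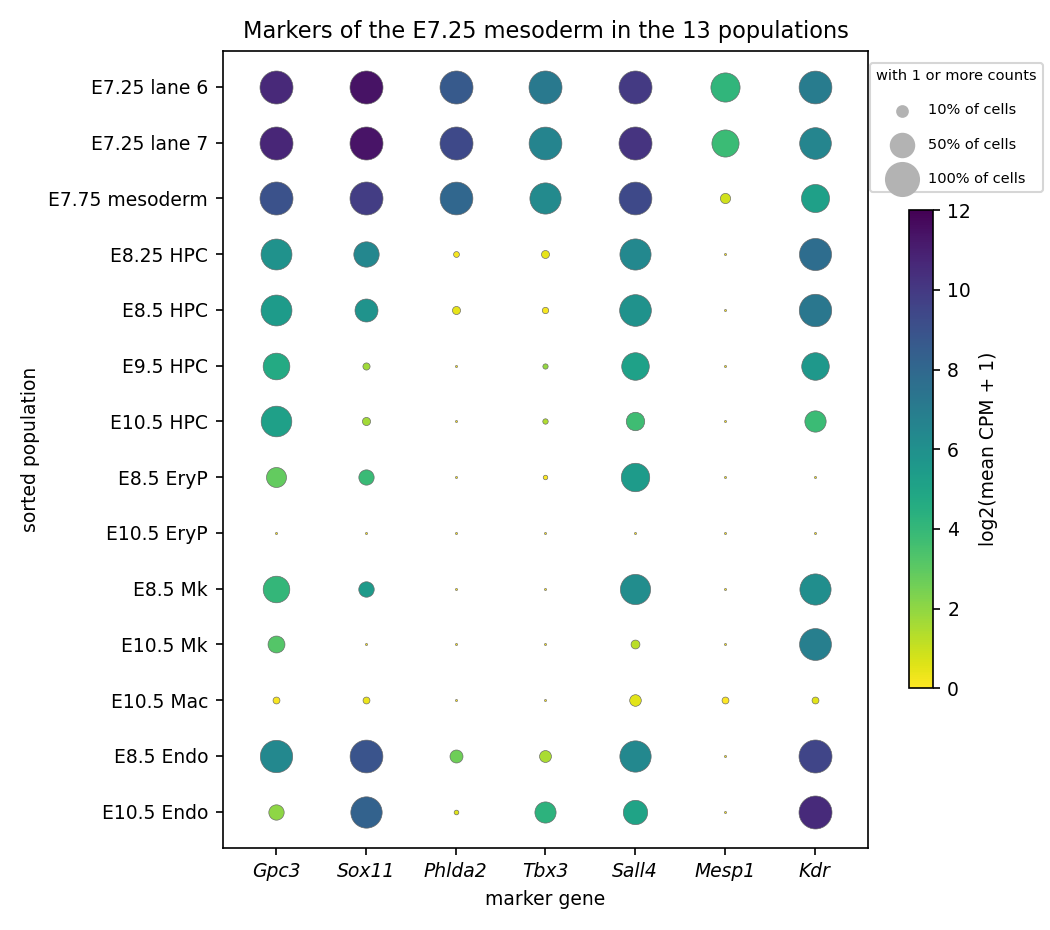
Mean level (colour, log2 of mean CPM + 1) and share of cells with 1 or more counts (dot area) of the 7 marker genes in both E7.25 captures and the other 12 populations. The E7.25 captures have dark, full-sized dots for *Gpc3*, *Sox11*, *Phlda2*, *Tbx3* and *Sall4*, *Mesp1* is nearly limited to them (78.1% and 67.6% of cells, 9.29% at E7.75), and *Kdr* is highest in both Endo populations, which do not carry the GFP allele.

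The mean profile of E7.25 was closer to that of E7.75 than to that of any later population, and the size of the gap depended on the genes used. Over the 2000 most variable genes, Spearman's rho between mean profiles was 0.856 with E7.75, 0.377 with E8.25 HPC, 0.351 with E8.5 EryP, 0.319 with E8.5 HPC and 0.301 with E8.5 Endo, and -0.0389 with E10.5 Mk. Between the captures it was 0.930. Over all genes past the limits on level, rho was 0.954 with E7.75, 0.852 with E8.25 HPC, 0.842 with E8.5 HPC, 0.808 with E8.5 Endo, 0.802 with E8.5 EryP and 0.697 with E10.5 Mk. Against the 11 later populations, 277 genes (2.33%) were 2-fold or more above all of them at E7.25, 240 (2.02%) were at E7.75 and 182 (1.53%) were at both stages. The rho values are correlations across genes, which are not independent, and they are given as a description.

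Of 11865 genes that reached a mean of 10 CPM and 20% of cells in any population, 92 (0.775%) were 2-fold or more above each of the 12 other populations, and 63 (0.531%) passed that limit in each capture alone. A margin of any size put 755 genes (6.36%) highest at E7.25. Among those of at least 50 CPM found in at least 50% of the cells of each capture, the 15 widest margins belonged to *Tdgf1*, *Eomes*, *Mixl1*, *T*, *Vrtn*, *Lhx1*, *Car14*, *Wasf1*, *Gpc3*, *Zfp599*, *Rps6ka6*, *Pcdh18*, *Sall1*, *Sox11* and *Emb*. Of these, *Tdgf1*, *Eomes*, *Mixl1*, *T* and *Lhx1* are on the list of streak and nascent mesoderm genes, and the other 10 are not.

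*Tdgf1*, the co-receptor of NODAL also called Cripto, averaged 238 CPM (263 in lane 6 and 214 in lane 7) and was found in 86.4% of cells, with a median of 51.8 and a maximum of 3459 CPM. At E7.75 its mean was 0.993 CPM in 3.57% of cells, and no later population exceeded 0.797 CPM. The log2 ratio to E7.75 was 6.91. A processed pseudogene on chromosome 16, *Tdgf1-ps1* (chr16:3730510-3731022), had its own row in the table (35.7 CPM at E7.25, 0.145 at E7.75), so reads shared by the pair make the split between them uncertain, though both rows had the same direction.

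*Eomes*, the T-box factor required for mesoderm to leave the streak, averaged 105.6 CPM (146.7 and 65.1 in lanes 6 and 7), with a median of 25.4 and a maximum of 1057 CPM per cell. It was found in 78.2% of cells, in 89.0% of lane 6 and 67.6% of lane 7 cells, against 2.04 CPM in 10.0% of E7.75 cells and at most 0.452 CPM later. *Mixl1*, a homeobox factor of the streak, averaged 270 CPM in 78.2% of cells (357 and 185 in the captures; median 37.1, maximum 5335), against 37.4 CPM in 32.1% at E7.75. *T*, or Brachyury, the founding T-box factor, averaged 66.6 CPM in 77.6% of cells (85.2 and 48.2; median 22.2, maximum 744), against 9.40 CPM in 27.9% at E7.75. In each of the 3, lane 6 was above lane 7 and both were above E7.75. *Lhx1*, a LIM homeobox factor of early mesoderm and the organizer, followed them at 65.0 CPM in 64.6% of cells (81.1 and 49.1; median 3.69), against 9.90 CPM in 35.0% at E7.75. The shares were similar at equal depth: thinned to 840000 counts per cell, *Eomes* was found in 74.8% and 7.38%, *T* in 73.5% and 20.5%, and *Tdgf1* in 81.0% and 3.28% of cells at the 2 stages. The thinned shares leave out 18 of the 140 E7.75 cells, which held fewer counts than that, and no E7.25 cell.

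The promoters of *T* and *Eomes* are given beside that of *Mesp1* because all 3 genes were highest at E7.25 and had unlike promoters in base composition. That of *T* (chr17:8434173-8434472, plus strand) was 61.7% GC with 17 CpG, and that of *Eomes* (chr9:118477939-118478238, plus strand) 47.3% GC. Neither held a match to any motif searched, so neither has capitals:
T: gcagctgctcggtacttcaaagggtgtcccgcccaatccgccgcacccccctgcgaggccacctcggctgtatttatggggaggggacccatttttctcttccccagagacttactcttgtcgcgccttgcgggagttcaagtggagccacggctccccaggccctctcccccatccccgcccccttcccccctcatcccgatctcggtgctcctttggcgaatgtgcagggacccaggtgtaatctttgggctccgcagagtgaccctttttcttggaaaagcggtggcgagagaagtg
Eomes: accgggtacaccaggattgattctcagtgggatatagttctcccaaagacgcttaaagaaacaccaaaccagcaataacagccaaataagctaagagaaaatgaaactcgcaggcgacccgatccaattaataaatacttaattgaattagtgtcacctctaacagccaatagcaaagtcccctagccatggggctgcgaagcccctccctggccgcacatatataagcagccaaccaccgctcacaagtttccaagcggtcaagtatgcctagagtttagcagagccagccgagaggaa

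The search covered the T-box letters TCACACCT, FOXH1 letters AATCCACA, GATA letters AGATAA, TCF/LEF letters CTTTGAT and the TATA box TATAAA, on both strands. Of the 92 genes, 69 had 98 promoters in the RefSeq table. T-box letters stood in 2.04% of these (*Mesp1* and *Sycp3*) against 1.28% of all 32851 promoters, and TCF/LEF letters in 7.14% against 3.73%. FOXH1 letters were in none against 0.855%, GATA letters in 4.08% against 11.2%, and TATAAA in 11.2% against 13.6%. With 98 promoters these shares rest on 0 to 11 matches each and describe letters, not bound sites. Outside the 92, *Phlda2* at chr7:143502475-143502774 (minus strand, 65.7% GC, 26 CpG) held TATAAA, in capitals, and shows a CpG-rich promoter among the abundant markers:
Phlda2: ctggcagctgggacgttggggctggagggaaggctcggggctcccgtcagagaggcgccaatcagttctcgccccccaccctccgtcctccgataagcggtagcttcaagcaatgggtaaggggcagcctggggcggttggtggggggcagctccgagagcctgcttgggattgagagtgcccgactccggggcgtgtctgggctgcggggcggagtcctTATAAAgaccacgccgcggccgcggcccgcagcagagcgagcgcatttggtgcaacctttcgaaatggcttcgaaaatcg

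**Figure D2:**
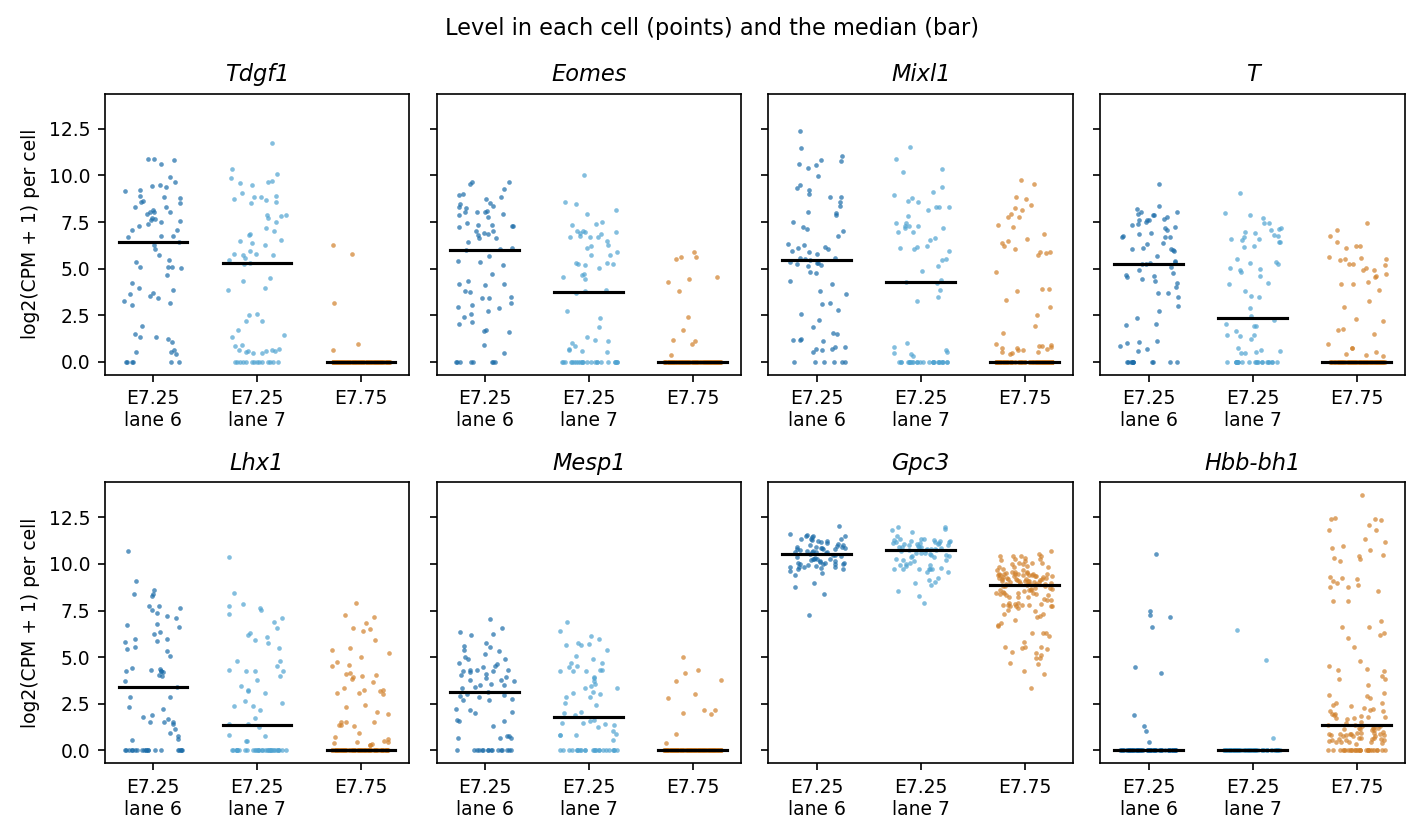
Level of 8 genes in each cell (points, log2 of CPM + 1) of both E7.25 captures and of E7.75, with the median as a bar. At E7.25 the medians of *Tdgf1*, *Eomes*, *Mixl1* and *T* lie above 0 in both captures with cells spread down to 0, the E7.75 medians are 0, *Gpc3* forms a compact cloud in each E7.25 capture, and *Hbb-bh1* is at 0 in most E7.25 cells and spread widely at E7.75.

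The remaining genes of the 15 had smaller margins and were found in most cells of both captures. *Vrtn* (56.2 CPM, 7.88 at E7.75), known for its part in setting vertebral number in livestock, was found in 89.1% of cells. *Car14*, a membrane carbonic anhydrase, averaged 201 CPM (203 and 199 in the captures) and 54.3 at E7.75. *Rps6ka6*, a ribosomal S6 kinase, averaged 929 CPM (894 and 963) and 294 at E7.75, and was found in every cell. *Sall1* (57.0 CPM, 18.3 at E7.75) is a relative of *Sall4*, *Pcdh18* (149.1 CPM, 48.4) a protocadherin and *Wasf1* (80.3 CPM, 21.8) an actin regulator. *Emb* (embigin), a partner protein of lactate transporters, averaged 794 CPM (781 and 807), and its nearest population was E10.5 HPC at 282 CPM, not E7.75 at 176. For 14 of the 15, the nearest population was E7.75.

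Genes that were lowest at E7.25 were fewer and their margins were narrow. Of the 11865 genes, 22 (0.185%) were 2-fold or more under every other population, 11 (0.0927%) in each capture alone, and 349 (2.94%) were lowest by any margin. Among those with at least 50 CPM in the lowest other population, only *Rn18s-rs5*, a sequence related to 18S ribosomal RNA, was past 2-fold, at 980 CPM (1190 in lane 6, 773 in lane 7) against 2373 in E8.5 HPC and 2468 at E7.75. *Cd47*, a cell surface signal that inhibits phagocytosis, followed with 30.5 CPM (22.8 and 38.2) against 60.4 at E7.75 and 691 in E9.5 HPC. *Plin2*, a lipid droplet coat protein, averaged 44.2 CPM against 81.3 at E7.75, and *Tmem14c*, a mitochondrial protein needed for haem synthesis, 101.4 CPM against 158.2 at E7.75 and 1512 in E10.5 EryP. The rest of that group, among them *Acaa2*, *Dazap2*, *Lars2*, *Add1* and *Btg2*, lay under the lowest other population by log2 differences of -0.63 to -0.33. For 10 of the 15 the lowest other population was E7.75, which was sequenced on the other flow cell.

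Against E7.75 alone, differences were few in number and large for a small group of genes. Of 8832 genes of at least 10 CPM at one of the stages, 470 (5.32%) were 2-fold or more above E7.75 and 410 (4.64%) 2-fold or more under it. The median log2 ratio over all 8832 was -0.04, and the median of its absolute value 0.35. The 10 most above E7.75 were *Tdgf1*, *Eomes*, *Sgk3*, *Mixl1*, *T*, *Vrtn*, *Robo1*, *Upp1*, *Lhx1* and *Zfp808*. *Sgk3*, a kinase acting under PI3-kinase, averaged 83.4 CPM against 10.4, *Robo1*, a SLIT receptor, 52.4 against 7.63, and *Upp1*, uridine phosphorylase, 52.2 against 7.71. Unlike the streak genes, these 3 and *Zfp808* (190 against 31.4 CPM) had levels in a later population close to or above E7.25, such as *Upp1* at 214 CPM in E10.5 Endo.

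The 10 most under E7.75 were of another kind. *Hbb-bh1*, an embryonic beta globin, averaged 15.0 CPM in 9.52% of E7.25 cells (28.7 in lane 6, 1.54 in lane 7; maximum 1482, median 0), against 498 CPM in 80.0% of E7.75 cells. *Gfi1b*, a repressor of the erythroid and megakaryocyte lineages, averaged 13.3 CPM in both captures and 70.8 at E7.75. *Acta2*, smooth muscle actin, averaged 22.6 CPM against 214, *Col1a1*, the alpha 1 chain of type I collagen, 10.54 against 53.5, and *Snai2*, a mesenchymal transcription factor, 12.2 (3.04 and 21.3 in the captures) against 68.1. *Abcg1*, a sterol exporter, averaged 22.5 CPM against 253, and *Lrp2*, or megalin, an endocytic receptor, 8.28 (2.36 and 14.1 in the captures) against 75.8, a log2 ratio of -3.05 that was -2.34 in lane 7 alone and -4.51 in lane 6 alone. *Ppp1r12c* (5.37 against 78.5 CPM), *Uhrf1bp1* (15.9 against 113.2) and *Tmem108* (9.62 against 58.6) completed the group. For *Hbb-bh1* the log2 ratio was -4.96 by means and -1.37 by medians over cells. With medians in place of means, the ratios were -0.06 for *Ppp1r12c*, -0.84 for *Uhrf1bp1*, -0.44 for *Gfi1b* and -0.98 for *Abcg1*. The differences in means of all these genes, *Hbb-bh1* among them, thus rested on a part of the cells. Blood, smooth muscle and matrix genes were therefore all among the largest differences, each higher at the later stage.

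**Figure D3:**
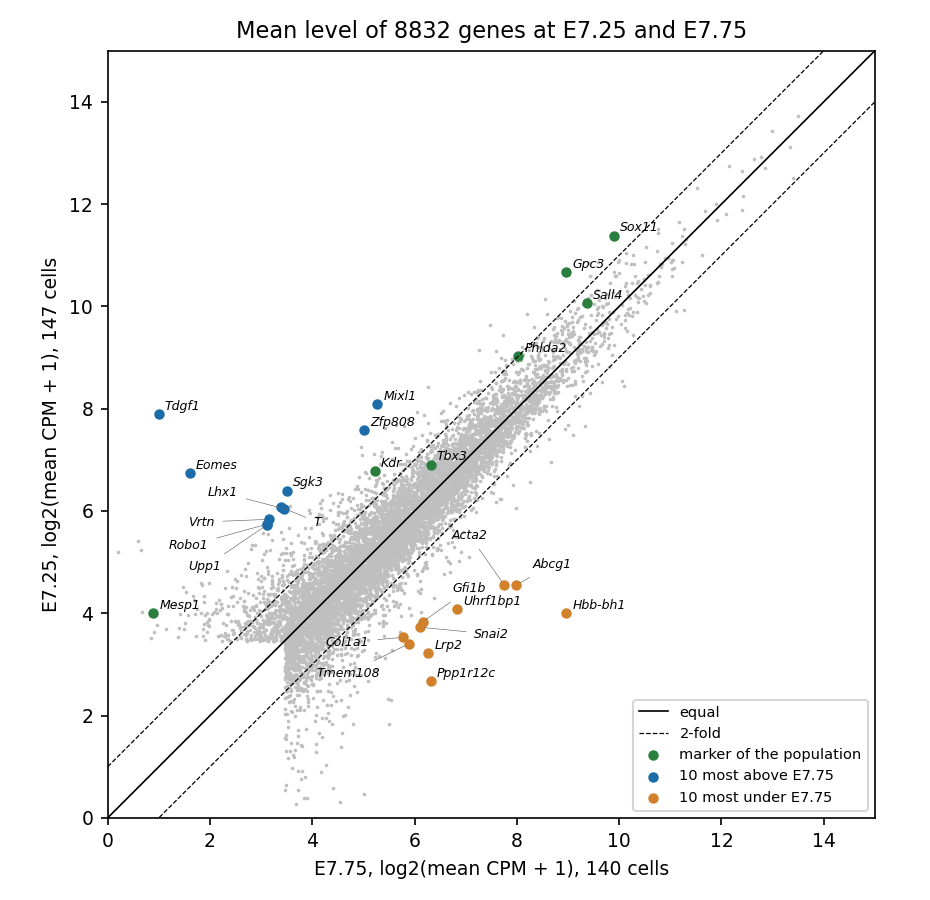
Mean level at E7.25 (y axis) against E7.75 (x axis), both log2 of mean CPM + 1, for 8832 genes, with equality as a solid line and 2-fold as dashed lines. Most genes lie within 2-fold, with 5.32% above and 4.64% under, and *Tdgf1* and *Eomes* lie furthest above and *Hbb-bh1* furthest under among the labelled genes.

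Grouped by role, genes of the streak and nascent mesoderm stood apart most. Of 18 listed genes, 12 were in the filtered table and 10 passed the limits on level; 9 of these were highest at E7.25 of the 13 populations (*T*, *Mixl1*, *Eomes*, *Mesp1*, *Lhx1*, *Wnt3*, *Tdgf1*, *Snai1* and *Fst*), and 8 were 2-fold or more above E7.75 with none under. Over all genes 6.36% were highest at E7.25, 5.32% were 2-fold or more above E7.75 and 4.64% were 2-fold or more under it. The median log2 ratio to E7.75 was 2.65, beside -0.04 over all genes. Their summed level was 1095 CPM, 1302 in lane 6 and 890 in lane 7, against 334 at E7.75 and 0.806 to 268 later. Over the genes of all lists that passed the limits, 52 of 359 (14.5%) were highest at E7.25. The list was drawn up with earlier results of these cells known and is no independent support.

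Some streak and paraxial mesoderm genes missing from the filtered table could be read from the table of all genes. *Sp5*, a target of WNT signalling, was found in 34.7% of cells, against 9.29% at E7.75, *Dll3*, a NOTCH ligand of presomitic mesoderm, in 32.7% and 1.43%, and *Tbx6*, a T-box factor of paraxial mesoderm, in 23.8% and 4.29%. *Mesp2* was found in 8.84% and in 0 of 140 cells. The NODAL ligand itself was rare, in 2.04% of E7.25 cells, and so were *Fgf8* (7.48%), *Gsc* (4.08%) and *Cer1* (2.72%). In the rarest of these the stages differed by 3 or 4 cells against none, too few to say how the stages compare, and no test was made. Other paraxial mesoderm genes were rare too, with *Msgn1* and *Tcf15* each in 3.40% of E7.25 cells and *Uncx* at 0. Of 4 paraxial genes in the filtered table, 1 passed the limits on level and was not highest at E7.25. The median share of E7.25 cells over the 4 was 10.2%.

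Within NODAL and TGF-beta signalling, the ligand side was almost silent while the co-receptors, receptors and inhibitors were well detected. Apart from *Tdgf1*, the second co-receptor *Cfc1* averaged 74.5 CPM and 73.9 at E7.75 but was nearly limited to the 2 mesoderm stages, with at most 0.110 CPM later. The activin receptor *Acvr2a* was above E7.75 (61.4 against 14.6 CPM), as was *Fst*, which encodes an activin inhibitor (12.6 against 2.91). The transcriptional partner *Foxh1* was at 266 and 249 CPM. The NODAL inhibitor *Lefty2* was found in 19.7% of E7.25 cells (9.16 CPM) and in 0 of 140 E7.75 cells. Of 11 genes compared with E7.75, 3 were 2-fold above (5.32% over all genes), none was under (4.64%), and the median log2 ratio was 0.10.

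WNT genes were highest at E7.25 in greater number than those of any other signalling pathway listed. Of 18 that passed the limits, 10 were highest at E7.25, beside 6.36% over all genes: the ligands *Wnt2* and *Wnt3*, the receptor *Fzd7*, the R-spondin *Rspo3* and its receptor *Lgr5*, the nuclear factors *Lef1* and *Tcf7*, and the inhibitors *Dkk1*, *Apcdd1* and *Frzb*. Of 16 compared with E7.75, 4 were 2-fold or more above (*Wnt2*, *Wnt3*, *Dkk1* and *Lgr5*; 5.32% over all genes), none was under, and the median was 0.48. *Wnt3*, the ligand needed for a streak to form, averaged 18.3 CPM (21.6 and 14.9 in the captures) in 58.5% of cells, against 3.50 CPM in 14.3%. *Dkk1*, a secreted WNT inhibitor, averaged 17.7 CPM against 2.67, and *Lgr5* 49.5 against 13.5. *Lef1* (94.4 and 77.0 CPM) and *Tcf7* (55.1 and 49.4) were close to E7.75 and far above the later populations, which reached 2.60 and 10.6 CPM. Ligand and inhibitor were thus higher together, and the widely used target *Axin2* was not (6.04 and 7.44 CPM).

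Most BMP, FGF and NOTCH genes lay within 2-fold of E7.75. Of 15 BMP genes that passed the limits, only the receptor *Bmpr1a* (161 CPM, 107.9 at E7.75) was highest at E7.25, beside 6.36% over all genes. Of 15 compared with E7.75, only the effector *Smad1* (62.6 against 22.3 CPM) was 2-fold above and none was under, beside 5.32% and 4.64%. The ligand *Bmp4*, which yolk sac mesoderm needs to form, was at 96.8 and 112.3 CPM. The targets *Id2* (80.7 against 147.1 CPM) and *Id3* (295 against 236) had opposite signs. None of 11 FGF genes was past 2-fold. Of 13 FGF genes that passed the limits, *Fgf10* (78.8 against 41.0 CPM) and the inhibitor *Spry2* (87.5 against 64.2) were highest at E7.25, beside 6.36% over all genes. Of 10 NOTCH genes that passed the limits, *Notch2* alone was highest at E7.25 (215 against 123.9 CPM), beside the same 6.36%. Of 6 VEGF genes compared, 1 was 2-fold or more above E7.75 and 2 were under, beside 5.32% and 4.64% over all genes: *Kdr* was above, the ligands *Vegfa* (4.56 against 16.0 CPM) and *Vegfb* (6.46 against 14.3) were under, and the co-receptor *Nrp1* was alike (209 and 235).

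Most listed genes of the yolk sac mesoderm itself lay within 2-fold of E7.75, though a larger share was past 2-fold than over all genes, mainly under E7.75. Of 17 extraembryonic mesoderm genes that passed the limits, 5 were highest at E7.25 (*Gata4*, *Msx1*, *Msx2*, *Tbx3* and *Lef1*), beside 6.36% over all genes. Of these, *Tbx3* is also 1 of the 7 markers. Of 16 compared with E7.75, 1 was 2-fold or more above (5.32% over all genes) and 3 were under (4.64%). The median log2 ratio was -0.17. *Hand1* (158.4 and 173 CPM), *Foxf1* (61.8 and 103.6), *Gata6* (74.1 and 107.97), *Tbx20* (81.1 at both stages) and *Pdgfra* (79.3 and 82.0) lay within 2-fold of E7.75, and each was found in 78.2% or more of E7.25 cells. *Gata4*, a GATA factor of early mesoderm and endoderm, was above E7.75 (37.5 against 14.8 CPM), and *Tbx4*, an allantois factor, was under it (0.300 against 13.9), as were *Tdo2*, tryptophan dioxygenase (70.9 against 191), and *Ahnak* (81.5 against 179). *Postn* was at 0 in every cell, for which the exact 95% interval of the share reaches 2.48%. Over the list, the median share of E7.25 cells was 89.8%, and streak genes were detected in the same population. Every population of the series came from the yolk sac, so these genes cannot tell extraembryonic from embryonic mesoderm here. The 9 cardiac mesoderm genes in the filtered table were in 8.16% to 90.5% of E7.25 cells (median 34.7%). Of 6 that passed the limits, *Myl7* alone was highest at E7.25, beside 6.36% over all genes. Of 6 compared with E7.75, none was above and 1, *Tnnt2*, was under (5.32% and 4.64% over all genes).

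Mesenchymal genes that the study listed on these cells were lower than at E7.75. Of 9, 6 were 2-fold or more under E7.75, beside 4.64% over all genes: *Acta2* and *Tagln* (35.8 against 120 CPM) of contractile cells, the collagens *Col1a1* and *Col1a2* (13.4 against 40.6), *Hsd11b2* (11.4 against 24.7) and *Dlk1* (1.46 against 10.8). The median log2 ratio was -1.53, and *Msx1* (53.6 against 48.0) and *Msx2* (46.3 against 30.3) were slightly higher at E7.25. Since the list was chosen on these samples, its direction is no independent evidence.

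The extracellular matrix shared that direction. Of 19 genes compared, 8 were 2-fold or more under E7.75 (*Col4a1*, *Col4a2*, *Lama4*, *Lama5*, *Lamc1*, *Col1a1*, *Col1a2* and *Col5a2*; 4.64% over all genes) and 2 above (*Lama1* and *Has2*; 5.32%), with a median of -0.53. *Lamc1*, the common laminin gamma chain, averaged 31.6 CPM against 115.3, and *Col4a1*, a basement membrane collagen, 39.6 against 89.0. Of 22 matrix genes that passed the limits, only *Has2*, hyaluronan synthase, was highest at E7.25 (29.5 against 11.2 CPM), beside 6.36% over all genes. *Fn1*, fibronectin, was abundant at both stages (679 and 515 CPM). *Lama1* had a mean of 55.7 CPM in lane 6 and 4.50 in lane 7, and without the highest cell of lane 6 that mean was 10.1, so its place above E7.75 (11.5) rests on 1 cell.

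Genes of the epithelial to mesenchymal transition did not share a direction. *Cdh2* (48.2 against 25.6 CPM) and *Cdh11* (168 against 102.02), cadherins of mesenchyme, *Snai1* (19.1 against 13.6), the repressor of E-cadherin, and *Epcam* (16.8 against 4.47), an epithelial adhesion molecule, were highest at E7.25, and E-cadherin itself (*Cdh1*) was found in 3.40% of cells. *Snai2*, *Zeb1* (22.4 against 46.2 CPM), and the simple keratins *Krt8* (144.3 against 304) and *Krt18* (366 against 808) were 2-fold or more under E7.75. Of 11 genes that passed the limits, 4 were highest at E7.25, beside 6.36% over all genes. Of 11 genes compared with E7.75, 1 was above (5.32% over all genes) and 4 were under (4.64%), with a median of -0.76.

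Of 30 blood and endothelial genes in the list, 1 was highest at E7.25 (*Etv2*; 6.36% over all genes) and 3 were lowest (*Adgrg1*, *Lyl1* and *Cbfa2t3*; 2.94%), and the median rank among the 13 populations was 10. *Etv2*, the ETS factor at the top of the programme, averaged 29.6 CPM (33.0 and 26.2) in 68.7% of cells, against 15.4 CPM in 62.9% at E7.75 and at most 5.89 later. The factors *Tal1* (42.6 and 43.7 CPM), *Fli1* (137.6 and 130), *Gata2* (84.7 and 68.6), *Lmo2* (36.5 and 49.0), *Hhex* (53.9 and 57.5) and *Runx1* (66.9 and 85.0) were within 2-fold of E7.75. Of 21 compared, 9 were 2-fold or more under E7.75 (4.64% over all genes) and none above (5.32%), with a median of -0.54. The 9 were *Kit* (14.5 against 52.1 CPM), *Gata1* (33.1 against 132.01), *Gfi1b*, *Klf1* (0.308 against 13.3), *Myb* (5.21 against 21.4), *Itga2b* (0.977 against 11.2), *Adgrg1* (0.245 against 22.3), *Pecam1* (6.07 against 25.7) and *Cbfa2t3* (14.5 against 41.9).

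Genes of mature endothelium were found in few cells. *Cdh5*, VE-cadherin, was found in 24.5% of cells at 6.08 CPM, beside 953 CPM in E10.5 Endo, *Tek*, the angiopoietin receptor, in 36.7% at 49.3 CPM, and *Sox17* in 3.40%. *Emcn* was at 0 in every cell, and *Aplnr*, the apelin receptor of early mesoderm, was in 91.2% (121.9 and 111.6 CPM at the 2 stages).

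Imprinted genes also had a direction, which fewer genes of glycolysis shared. Of 18 imprinted genes compared, 8 were 2-fold or more under E7.75 and none above, beside 4.64% and 5.32% over all genes, with a median of -0.79: *H19* (371 against 1070 CPM), *Igf2* (123.3 against 405), *Igf2r* (65.3 against 254), *Airn* (8.08 against 19.1), *Cdkn1c* (47.3 against 122.9), *Dlk1*, *Meg3* (74.0 against 206) and *Rian* (178 against 547). *Igf2* and *H19* share an imprinted region, and so do *Dlk1*, *Meg3* and *Rian*. Of 20 imprinted genes that passed the limits, *Phlda2* and the amino acid transporter *Slc38a4* (433 against 375) were highest at E7.25, beside 6.36% over all genes. In glycolysis, 3 of 18 genes compared were 2-fold or more under E7.75 and none above, beside the same shares over all genes. They were the glucose transporters *Slc2a1* (347 against 1087 CPM) and *Slc2a3* (314 against 688) and hexokinase *Hk1* (1.76 against 11.0). The lactate and pyruvate transporter *Slc16a1* was higher (290 against 147.2), and *Pkm* (2565 and 2537) and *Ldha* (3311 and 3850) were alike. Of the 18, *Slc16a1* and *Pkm* were highest at E7.25 of the 13 populations (6.36% over all genes). The list median was -0.50 over 18 genes.

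Proliferation genes hardly differed. Of 16 S phase genes none was past 2-fold (median 0.05). Among 16 mitosis genes only *Bub1*, a spindle checkpoint kinase, was above E7.75 (418 against 188 CPM, list median 0.10) and none was under. Over all genes 5.32% were 2-fold or more above E7.75 and 4.64% under. All genes of both lists were found in 90.5% or more of E7.25 cells. The 8 genes of the LIN28 group, which set developmental timing, were likewise within 2-fold (*Lin28a* 225 and 299 CPM, *Hmga2* 570 and 460).

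**Figure D4:**
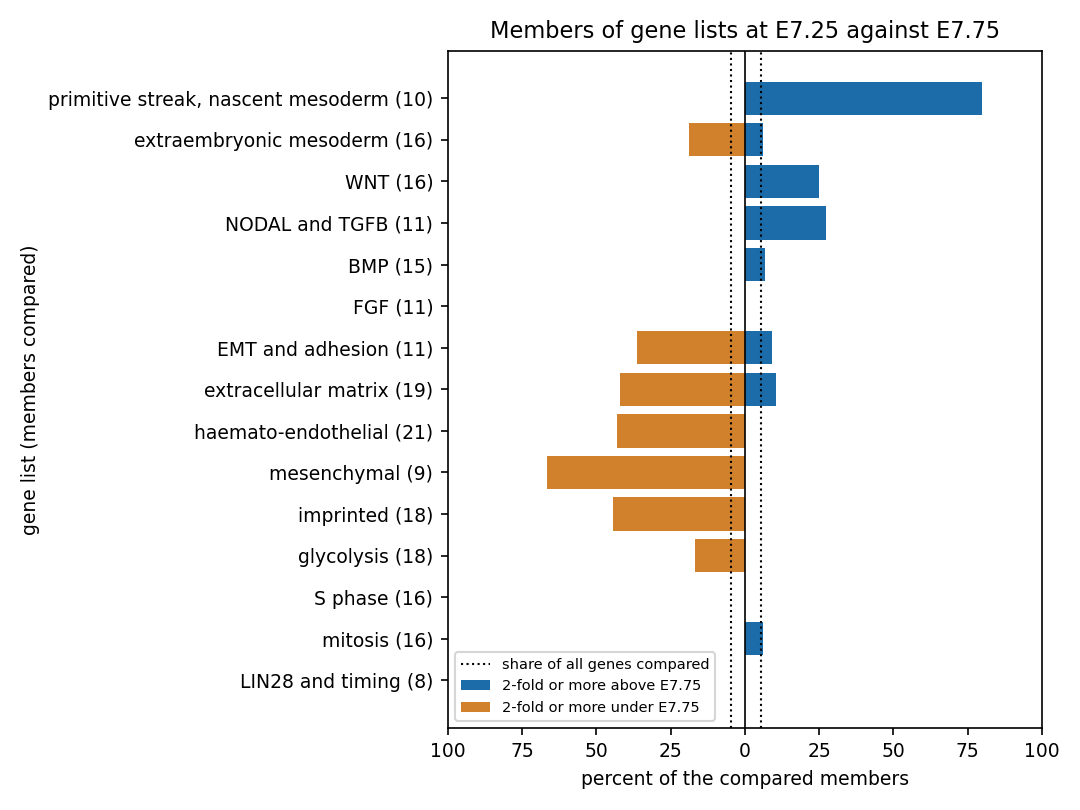
Share of the compared members of 15 gene lists that were 2-fold or more above (blue, right) or under (orange, left) E7.75, with the shares over all 8832 genes, 5.32% and 4.64%, as dotted lines. The streak list reaches furthest above (8 of 10), the mesenchymal list furthest under (6 of 9), and FGF, S phase and LIN28 lists show no member past 2-fold.

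Of the other cells that a sort of yolk sac tissue could hold, macrophage and megakaryocyte markers were near 0, and the lists for the rest were mixed. Of 6 macrophage markers, 4 were at 0 (*C1qb*, *C1qc*, *Ptprc* and *Adgre1*) and the others were in 0.680% of cells. Their summed level was 0.175 CPM, beside up to 3778 CPM in another population. Of 5 megakaryocyte markers, *Gp1bb* and *Gp9* were at 0, and the highest shares were 5.44% (*Vwf* and *Itga2b*). Among visceral endoderm genes, *Afp*, *Apoa4* and *Hnf4a* were at 0, and *Ttr* was in 0.680%, *Apob* in 0.680%, *Foxa2* in 1.36%, *Trf* in 6.12% and *Apoa1* in 9.52%. *Dab2*, an endocytic adaptor, was at 85.0% (102.4 CPM, and 3293 in E10.5 Mac). Of trophoblast genes, *Elf5*, *Tpbpa*, *Prl3d1* and *Krt7* were at 0, and *Tfap2c* was in 4.76%, but 3 of the 6 in the filtered table were in 50% or more of the cells. They were *Plac1* in 69.4% (57.7 CPM, 81.4 at E7.75), *Gata3* in 69.4% (14.5 CPM, 8.84 at E7.75) and *Eomes*, which is also a streak gene. Of epiblast and neural genes, *Sox2* was in 2.04%, *Nanog* in 10.2%, *Fgf5* in 7.48%, and *Sox1* and *Sox3* were at 0. Of the 3 such genes of the filtered table, only *Epcam* passed the limits on level. *Epcam* was in 55.8% (16.8 CPM, 4.47 at E7.75) and highest at E7.25, beside 6.36% over all genes. *Otx2* in 19.0% (8.96 CPM, 1.61 at E7.75) and *Pou5f1* in 47.6% (4.51 CPM, 1.64 at E7.75, 0 in every later population) did not reach those limits, though their highest mean was also at E7.25. Of 6 germ cell genes in that table, 3 were in 50% or more of the cells, with shares from 1.36% (*Dppa3*) to 96.6% (*Ifitm1*) and a median of 39.8%. Of the 3 germ cell genes that passed the limits on level, *Ifitm1* and *Alpl* were highest at E7.25, beside 6.36% over all genes.

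Erythroid genes were low in both captures. *Hba-x*, the embryonic alpha globin, was at 0 in every cell, and of 11 erythroid genes 3 were at 0. The summed level was 26.7 CPM (42.5 in lane 6, 11.2 in lane 7) against 573 CPM at E7.75. Several Hox genes and *Cdx2* were rarer than at E7.75, *Hoxc9* being at 0 in every cell and in 10.7% at E7.75, *Hoxc5* in 0.680% and 12.9%, and *Cdx2* in 6.12% and 25.0%, although *Hoxd11* was in 4.76% and 0. *Hoxb1*, the most 3′ gene of its cluster, was at like levels at both stages (15.5 and 18.1 CPM).

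The captures were alike in most genes, and lane 6 was the one with more streak transcripts. Over 8616 genes compared, the median absolute log2 ratio was 0.29; 384 genes (4.46%) were 2-fold or more higher in lane 6 and 1.52% of genes in lane 7. Several of the largest lane 6 values came from a single cell. *Atxn1l* (85.3 against 11.6 CPM), *Ppcs* (56.7 against 14.4) and *Ulk1* (97.9 against 18.5) had their maxima, 3226 to 6067 CPM, in the same lane 6 cell, one of 5568 detected genes. Without the highest cell of each capture, the lane 6 means were 23.8, 12.7 and 15.0 CPM, those of lane 7 10.2, 13.6 and 16.0, and the number of genes 2-fold higher in lane 6 was 271. That cell belongs to lane 6 by its label and was kept.

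Differences that many cells carried were of a few kinds. *Pycard*, an inflammasome adaptor, was at 103.1 CPM in lane 6 and 24.9 in lane 7 (91.7 and 21.6 without the highest cells). *mt-Rnr2*, the mitochondrial large ribosomal RNA, was at 11708 and 3391 CPM, along with the higher mitochondrial share of lane 6. *Pdpn*, podoplanin, was higher in lane 7 (42.5 and 127.8 CPM), and so were *Peg10*, an imprinted retrotransposon-derived gene (64.0 and 154.5), *Nrm* (27.6 and 66.3), *Ak3* (22.1 and 58.3), *Akr1e1* (22.6 and 51.7), and Y-linked *Eif2s3y* (39.2 and 100). The genes *Krt18* (237 and 494 CPM), *Cdx4* (4.95 and 28.2) and *Snai2* (3.04 and 21.3), all higher at E7.75 than at E7.25, were higher in lane 7, whereas *Runx1* (91.2 and 42.8), *Tal1* (57.3 and 28.1) and *Tek* (72.2 and 26.8) were higher in lane 6, as were *Mixl1*, *Eomes* and *T*.

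The most abundant transcripts by CPM, with no correction for transcript length, were mitochondrial or housekeeping. *mt-Cytb* (13596 CPM), *mt-Co1* (10978), *Set* (7767), *Ptges3* (6894), *Hsp90ab1* (6725), *Actb* (5869) and *Npm1* (5075) were found in every cell with *mt-Nd1* and *mt-Rnr2*. *Set*, *Ptges3* and *Npm1* had their highest level of the 13 populations at E7.25, and *Actb* ranked 12 of 13.

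Genes that varied most from cell to cell for their level included *Mixl1*, *Tdgf1*, *Enc1*, *Spin2c*, *Tspan12*, *Pmp22*, *Lifr*, *Map1b*, *Bend4*, *Slc18a2* and *Asb4*. The SD of log2(CPM + 1) was 3.69 for *Mixl1* and 3.55 for *Tdgf1*, 1.44 and 1.35 above the running median of genes of like level. The non-coding *B830012L14Rik* (chr12:109695586-109702587) and *Gm37899* (chr12:109668869-109677585) were also among them, with SDs of 3.84 and 3.67. They lie next to each other on the plus strand of chromosome 12, and ranged from 0 to 4848 and from 0 to 1446 CPM per cell.

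Principal components of the E7.25 cells were computed on the 2000 most variable genes. Component 1 held 7.04% of the variance and followed the number of genes detected (rho 0.93), with *Efna5*, *Inafm2* and *Tbck* at its upper end (loadings of 0.0521 to 0.0537). Negative loadings were near 0, and the first were *Trim26* (-0.0120), *Tgfbr1* (-0.0104) and *Smg8* (-0.00922). Components 2 (3.03%) and 3 (2.30%) did not follow it (rho 0.08 and 0.07). Component 2 had *Nrip3*, *Fli1*, *Ddah1*, *Hapln1*, *Runx1*, *Hhex*, *Gata2* and *Tal1* at one end and *Tdgf1*, *Pdgfra*, *Meis2* and *Mixl1* at the other. Component 3 had *Eomes*, *Tdgf1*, *Klhl6*, *Sgk1*, *T* and *Lhx1* at one end and *Tdo2*, *Krt18*, *Stard8*, *Spin2c* and *Ahnak* at the other. Lane 6 cells lay above lane 7 cells in 61.7%, 57.2% and 67.8% of pairs on components 1, 2 and 3, so the captures overlapped throughout. The genes of components 2 and 3 were named after their values were seen.

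**Figure D5:**
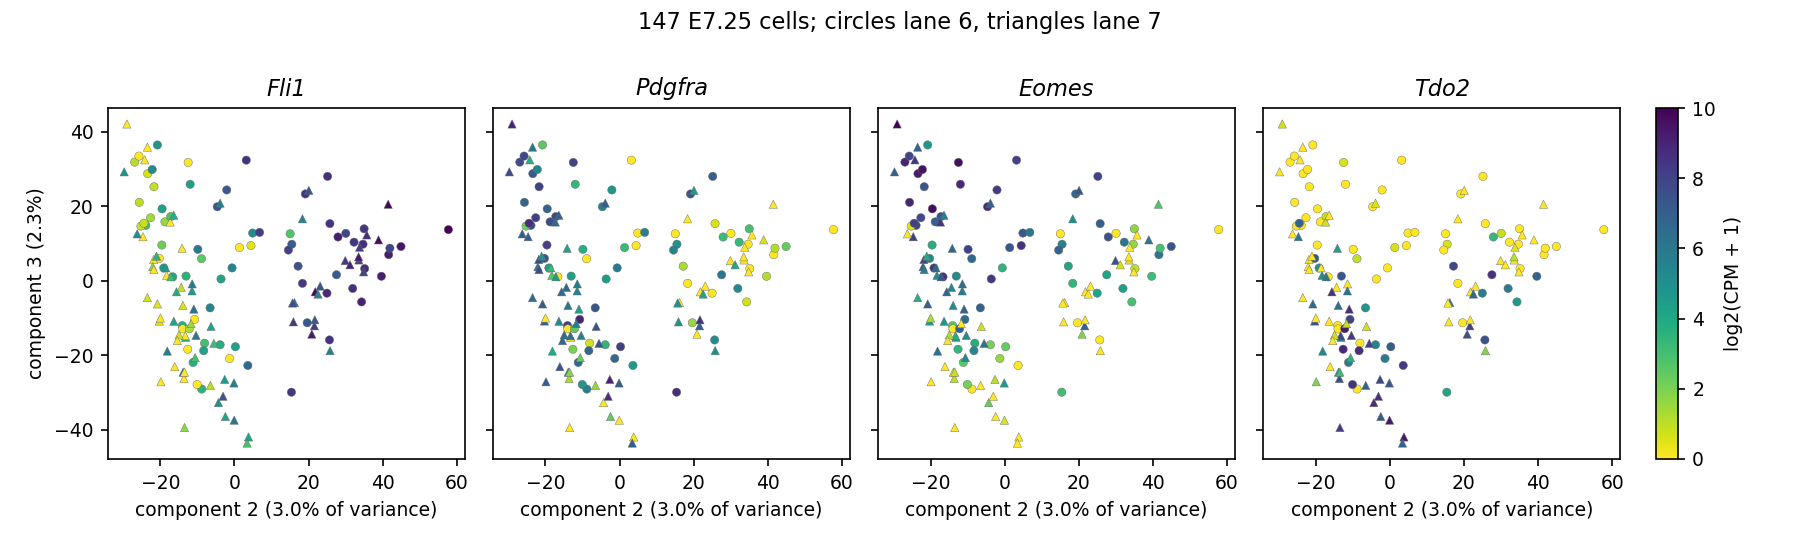
The E7.25 cells on principal components 2 (x axis) and 3 (y axis), circles for lane 6 and triangles for lane 7, coloured by log2 of CPM + 1 of *Fli1*, *Pdgfra*, *Eomes* and *Tdo2*. *Fli1* is high to the right, *Pdgfra* to the left, *Eomes* at the top and *Tdo2* at the bottom, with both captures present across the plot.

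Pairs of genes, only some of them from these ends, were correlated across cells as a description. The groups were also chosen after the values were seen, and the points share library depth. Over all pairs of the 2000 genes the median rho was 0.05, with 5th and 95th percentiles of -0.09 and 0.20. Among the blood and endothelial genes *Tal1*, *Lmo2*, *Fli1*, *Gata2*, *Runx1*, *Hhex* and *Tek* the median was 0.58 (0.59 in lane 6, 0.53 in lane 7), and among *Pdgfra*, *Hand1*, *Msx1*, *Tdo2*, *Krt18* and *Pmp22* it was 0.38 (0.36 and 0.41). Between these groups the median was -0.32 (-0.33 and -0.28), and none of the 42 pairs was positive over all cells (1 was in lane 6 alone). At E7.75 the same medians were 0.61, 0.55 and -0.42. As the groups came from opposite ends of components of these same cells, the choice fixed these signs at E7.25.

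Among the streak genes *T*, *Mixl1*, *Eomes*, *Lhx1* and *Tdgf1* the median rho was 0.35 (0.37 and 0.28 in the captures; 0.11 at E7.75). It was highest for *Eomes* with *Tdgf1* (0.75) and lowest for *T* with *Tdgf1* (0.07). *T* lay with the blood and endothelial group instead, at 0.49 with *Lmo2* and 0.38 with *Tal1*, whereas *Tdgf1* was at -0.17 and -0.19 with the same genes. The T-box factors *T* and *Eomes*, both highest at E7.25, had a rho of 0.11 with each other.

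Joint detection was counted per capture site, and 22.4% of the sites held transcripts of both sexes, as described further on. All 5 streak genes were found in 54 E7.25 cells (37 of lane 6, 17 of lane 7) and 4 of them in 45, with no cell lacking all. At E7.75, 0 of 140 cells held all 5, 4 held 4, and 50 held none. Without the sites with transcripts of both sexes, the E7.25 share with all 5 was 34.2% (exact 95% interval 25.6 to 43.7), beside 36.7% (28.9 to 45.1) with them. *Mesp1* was found in 82.6% of the cells with *Eomes* (exact 95% interval 74.4 to 89.0) and in 37.5% of the 32 without (21.1 to 56.3). *Lefty2* was found in 25.2% of cells with *Eomes* and in 0 of 32 without, for which the interval reaches 10.9%. *Tal1* was found in 87.0% of 54 cells with *Tek* (75.1 to 94.6) and 41.9% of 93 without (31.8 to 52.6). *T* was found in 86.0% of 86 cells with *Tal1* and 65.6% of 61 without (76.9 to 92.6 and 52.3 to 77.3). For *Mesp1* these shares were 65.1% and 83.6% (54.1 to 75.1 and 71.9 to 91.8), and for *Eomes* 79.1% and 77.0%. The intervals of *T* and of *Mesp1* overlapped slightly. Without those sites, *Mesp1* was found in 81.6% of cells with *Eomes* and 40.7% without, *Tal1* in 85.7% with *Tek* and 45.8% without, *T* in 85.5% with *Tal1* and 60.0% without, and *Mesp1* in 63.8% with *Tal1* and 84.4% without. Cells with and without *Tal1* had 8793 and 8731 genes detected at the median. The cells are those of 2 captures and are no replicates, so these shares carry no test.

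Of the 6 blood and endothelial genes *Kit*, *Gata2*, *Fli1*, *Hhex*, *Lmo2* and *Tal1*, 33 cells held all 6 (24 of lane 6, 9 of lane 7) and 3 held none, with every number in between filled by 8 to 28 cells. The share with all 6 was 22.4%, and 24.6% without the sites with transcripts of both sexes. The median number of genes detected was 9014 in cells with all 6 and 7648 in the 3 cells with none.

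Some capture sites held transcripts of both sexes. With 5 or more counts of *Xist* and of the Y-linked genes *Ddx3y*, *Eif2s3y*, *Kdm5d* and *Uty* together, 33 cells held both (22.4%, exact 95% interval 16.0 to 30.1), 17 of lane 6 and 16 of lane 7, 22 held *Xist* only and 90 Y-linked genes only. With 20 counts the share was 15.6%, and with 1 count 47.6%. Their median number of genes detected was 8995, beside 8742.5 in the other cells. What gave both was not tested. Without these 33 cells, 89 genes were 2-fold or more above every other population, 80 of them among the 92, and the means of *Tdgf1* (237 CPM), *Eomes* (95.1), *T* (62.5) and *Mesp1* (14.4) were close to those with them.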

How the data were processed

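Single cells were captured on the Fluidigm C1, and their libraries were made with Nextera XT. The authors aligned the reads to the Ensembl 84 mouse genome (GRCm38) with Rsubread and deposited read counts per gene from featureCounts, for all cells and for the cells and 15967 genes that passed their scater filter. They also deposited a signal, the filtered counts scaled by scran size factors, called CPM here. It does not sum to a fixed total per cell (699615 to 4176737). No column was left unused for want of a sample.

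Means and shares were computed in Python 3.11.15 with numpy 2.4.6, pandas 2.3.3 and scipy 1.17.1, and plots in matplotlib 3.10.9. Genes were compared where 1 population had a mean of 10 CPM and detection in 20% of its cells, and the limit was 2-fold on log2(mean CPM + 1). Cells are not replicates and each population is 1 sample, so no test was made. Intervals are exact (Clopper-Pearson, 95%). Cells were also thinned to 840000 counts.

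Genes were named by size: the 7 markers, the 15 highest and 15 lowest against all other populations, 10 per direction against E7.75 and 8 per direction between captures (50 CPM and 50% of cells), the 10 most abundant, the 15 most variable (20 CPM or more, excess over a running median of 101 genes), the ends of component 1, and within lists the 4 most abundant members and any highest or lowest. List members named for passing 2-fold against E7.75, single genes named for a contrast with their list, and the genes of components 2 and 3, correlations and joint detection were chosen after their values were seen. The population, markers and gene lists were chosen with earlier results of these data known. Some genes that these rules name are not reported here. Scripts were tested on simulated data. Promoters and motifs came from RefSeq (GRCm38.p6).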

Additional observations from a re-analysis of the deposited data

How the results depend on the processing

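No log2 ratio of a named gene to E7.75 changed sign under the alternatives run. The cause of each change below was not tested. Values are percentages of the genes tested under each setting. The share 2-fold above all other populations (0.775%) was 1.80% with medians over cells in place of means, where 48 of the 92 genes were called again, 0.421% with a pseudocount of 10 and 1.01% without the filter on low values (0.801% to 1.04% with 1 capture left out). The share under all others (0.185%) was 0.0590% with medians, 0.0421% with the pseudocount and 0.333% without the 3 cells of E10.5 EryP (0.235% to 0.236% with 1 capture left out). The share above E7.75 (5.32%) was 9.22% with medians, 2.45% with the pseudocount and 5.79% without the filter, which tests more genes (5.22% to 7.28% with 1 capture left out), and the share under it (4.64%) was 1.81% with the pseudocount and 5.99% without the filter (5.83% to 5.98%). Genes higher in lane 6 (4.46%) were 10.9%, 1.404% and 6.56% with medians, the pseudocount and no filter, and those higher in lane 7 (1.52%) were 3.42%, 0.279% and 3.49%. List members lowest at E7.25 (2.79%) were 0.557% with medians. Genes detected (8759 at the median) were 8319 after thinning and 6729 at 10 counts or more. Spearman's rho with E7.75 (0.856) was 0.881 over 4000 genes and 0.954 over all. The correlation with later populations changed sign with the number of genes: for E10.5 Mk, -0.0389 became 0.207 over 4000 genes and 0.697 over all, and over 1000 genes E9.5 HPC (0.119) was -0.0414, E10.5 HPC (0.120) -0.0602 and E10.5 Mac (0.0113) -0.0855. Cells with transcripts of both sexes (22.4%) were 47.6% at 1 count and 15.6% at 20 counts. With 1 capture left out, the mean share of cells with a marker was 94.0% to 96.7%, that with markers of other cells 6.16% to 6.85%, genes detected 8547.5 to 9085, component 1 6.41% to 9.09% of the variance, list members highest 15.8% to 15.9% and lowest 3.05% to 3.07%.

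For the 49 named genes, 223 of 294 log2 ratios to E7.75 under the alternatives moved by no more than 1 SD of the captures and 71 by more. The alternatives include each of the 2 captures alone. Their difference set that SD, so those values could seldom move by more, and the count overstates stability. Leaving out cells with transcripts of both sexes (for joint detection too) and the highest cell of each capture were alternatives chosen after seeing the data. No paired analysis was possible because the replicate numbers in the titles only name single cells and no result came from a test. Where a gene was found in no E7.25 cell, the exact 95% interval of its share reaches 2.48%.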
